A study of Rattus norvegicus with 24 samples.

Results

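The genes followed here encode signals that pass between the stroma and the ducts of the mammary gland, with some of their receptors. They are the fibroblast growth factors Fgf7, Fgf10 and Fgf2, the receptors Fgfr1 and Fgfr2, the bone morphogenetic proteins Bmp2 and Bmp4, hepatocyte growth factor Hgf with its receptor Met, and the activin subunit Inhba. Every probe set annotated to 1 of these genes alone was taken, which gave 17 probe sets for all 10 genes, out of 31042 probe sets tested and 14217 annotated genes. The RNA came from abdominal mammary gland pairs of male and female Sprague-Dawley rats, an outbred strain. All rats carried a subcutaneous osmotic pump from postnatal day 21 to day 33 that released 17β-estradiol, the main ovarian estrogen, at 0, 0.1, 1 or 10 µg per kg per day. Sex and dose made 8 groups of 3 arrays, and the groups given 0 served as controls. Whole glands were taken, so fat, ducts, connective tissue and vessels were measured together. In such RNA, fewer cells of a type and less RNA per cell cannot be told apart. The sources used here do not say whether the arrays stood for separate animals, so a p-value speaks only of the spread among arrays, some of which may be technical.

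The values are signed, on a log scale taken as log2. In 14270 probe sets the smallest positive and the smallest negative value were equal in size within 2e-06, and in 14268 of these both came from the same sex, so values are treated here as relative to a reference within each sex. What that reference was, and over which arrays it was taken, is not given in the sources used here, and 0 need not be the middle of the 12 values of a sex. No level can be set against that of another gene or of the other sex, and the labelled tissue cannot be checked by the level of its markers. Differences between doses within a sex are kept, and folds assume base 2. Differences are given with their standard error (SE), over 3 arrays against 3, and limma's p-values were adjusted across the 31042 probe sets by Benjamini-Hochberg, with a threshold of 0.05. The 3 doses of a sex were each compared with the same 3 control arrays, so these comparisons are not independent of one another.

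Fibroblast growth factors are secreted proteins that signal through tyrosine kinase receptors. In the mammary gland Fgf7 and Fgf10 come mainly from the stroma and fat pad, and both signal through the epithelial form of Fgfr2, which ducts need to form and branch. Bmp4 and Bmp2 belong to the TGF-β superfamily, act through serine kinase receptors and SMAD proteins, and take part in mammary bud formation and lumen formation. Hgf is made by stromal fibroblasts and acts on Met on the epithelium to promote branching. Inhba forms activin A, which follistatin binds and blocks.

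Fgf7, Bmp4 and 1 of the 2 probe sets of Fgfr1 were lower in the glands of males given the dose of 10 than in control males. The falls were 2.43-fold for Fgf7, 2.42-fold for Bmp4 and 1.71-fold for Fgfr1. At the dose of 1 in males, Fgf7 and the same Fgfr1 probe set were already lower, and 1 of the 5 probe sets of Fgfr2 was higher. In females no probe set of these genes passed the test at any dose. Fgf10, Fgf2, Bmp2, Hgf, Met and Inhba did not pass the test in either sex.

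Fgf7 and Bmp4 are shown with the RefSeq sequence upstream of their start sites, because these secreted factors moved together in males. The upstream sequence of Fgfr2, the receptor with a probe set that moved the other way, is shown beside them. Each window holds the 250 bases before the annotated start, written 5′ to 3′ on the gene's strand in assembly GRCr8. Fgf7 lies on the plus strand at chr3:133735377-133735626, Bmp4 on the minus strand at chr15:22101934-22102183 and Fgfr2 on the minus strand at chr1:194280915-194281164. Capitals mark matches to 4 motifs searched on both strands, which were the estrogen response element half-site AGGTCA, the full element GGTCANNNTGACC, the AP-1 site TGANTCA and the GC box GGGCGG.
Fgf7: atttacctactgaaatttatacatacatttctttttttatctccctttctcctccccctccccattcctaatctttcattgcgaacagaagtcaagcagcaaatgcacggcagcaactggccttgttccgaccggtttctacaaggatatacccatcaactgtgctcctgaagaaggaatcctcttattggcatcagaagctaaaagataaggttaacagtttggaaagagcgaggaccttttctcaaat
Bmp4: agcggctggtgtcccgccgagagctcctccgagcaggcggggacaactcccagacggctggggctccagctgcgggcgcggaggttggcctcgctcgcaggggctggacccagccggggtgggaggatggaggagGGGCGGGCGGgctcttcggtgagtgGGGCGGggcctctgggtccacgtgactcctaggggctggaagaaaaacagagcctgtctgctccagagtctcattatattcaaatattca
Fgfr2: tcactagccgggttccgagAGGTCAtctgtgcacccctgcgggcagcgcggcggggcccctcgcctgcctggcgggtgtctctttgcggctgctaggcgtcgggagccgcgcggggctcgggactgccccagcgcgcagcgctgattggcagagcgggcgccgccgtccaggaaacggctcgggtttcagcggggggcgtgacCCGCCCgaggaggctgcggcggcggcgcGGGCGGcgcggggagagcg
The Fgf7 window held none of the 4 motifs, and its GC content was 41.6%, against a median of 51.2% over 33469 promoter windows of the same length. The Bmp4 window had a GC content of 66.4% and 3 GC boxes, which start 115, 111 and 90 bases before the gene's start, and the first 2 overlap. The Fgfr2 window had a GC content of 76.8%, a half-site that starts 231 bases before the gene's start, and GC boxes at 47 and 19 bases. Over all windows, 14.1% held the half-site, 0.0239% the full element, 6.34% the AP-1 site and 30.5% the GC box. Since the Fgf7 window held no match, it could share none with the Bmp4 window. The part of these motifs in the falls of Fgf7 and Bmp4 was not tested. Of the 10 genes 8 were in the RefSeq promoter table, and Bmp2 and Fgfr1 were not matched.

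Fgf7, also called keratinocyte growth factor, had a lower mean at each higher dose in males. The control males read 0.83, 0.51 and 0.61. At 0.1 the males read 0.42, 0.33 and 0.34, and at 1 they read -0.24, -0.03 and 0.05. At 10 they read -0.53, -0.72 and -0.65. No neighbouring dose groups overlapped in males, and the order of the means from high to low was 0, 0.1, 1 and 10. Of all probe sets, 10.8% had every male array at 0.1 below every control. For 9.72%, every male array at 10 lay below every male array at 1. The Fgf7 difference from the controls was -0.28 ± 0.17 at 0.1 (SE, adjusted p = 0.487), which did not pass the test. It was -0.72 ± 0.17 at 1 (adjusted p = 0.0271) and -1.28 ± 0.17 at 10 (adjusted p = 7.54e-05, limma). From 1 to 10 the difference was -0.56 ± 0.17 (adjusted p = 0.203), so that step alone did not pass. The step from 0.1 to 1 was not tested.

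In females Fgf7 did not follow this order. The control females read 0.30, 0.32 and 0.09, and the females at 1 read 0.32, 0.37 and 0.24, which overlapped them. The females at 0.1 spread from -0.62 to 0.28. At 10 the females read -0.28, -0.63 and 0.02, all below the controls. The female difference at 10 was -0.53 ± 0.17 (adjusted p = 0.131) and did not pass the test. Without female replicate 4 at 0.1 and male replicate 1 at 0, the arrays with the widest spread over all probe sets, its adjusted p was 0.0381. Neither array is in this comparison, so the difference stayed at -0.53 while its SE was 0.13. That fit called 963 of 31042 probe sets in females at 10, against 577 in the main fit. No other alternative, and no fit with 1 array left out, called this Fgf7 difference.

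Bmp4, a ligand of the BMP type I and type II receptors, had a male pattern close to that of Fgf7. The control males read 0.37, 0.62 and 0.34, and the males at 10 read -0.59, -1.06 and -0.85. The males at 0.1 reached 0.25, with a mean of 0.10, and the mean at 1 was -0.07. The groups at 0.1 and 1 overlapped, while each of the other neighbouring pairs did not. The difference at 10 was -1.28 ± 0.18 (SE, adjusted p = 9.57e-05, limma). At 1 it was -0.52 ± 0.18 (adjusted p = 0.109) and did not pass the test. Every male array at 1 lay below every control, as in 14.3% of all probe sets. In females the controls read 0.38, 0.22 and 0.02, and the females at 10 read -0.44, -0.45 and -0.21. This female difference, -0.58 ± 0.18, did not pass the test (adjusted p = 0.109), and these groups did not overlap either.

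**Figure D1:**
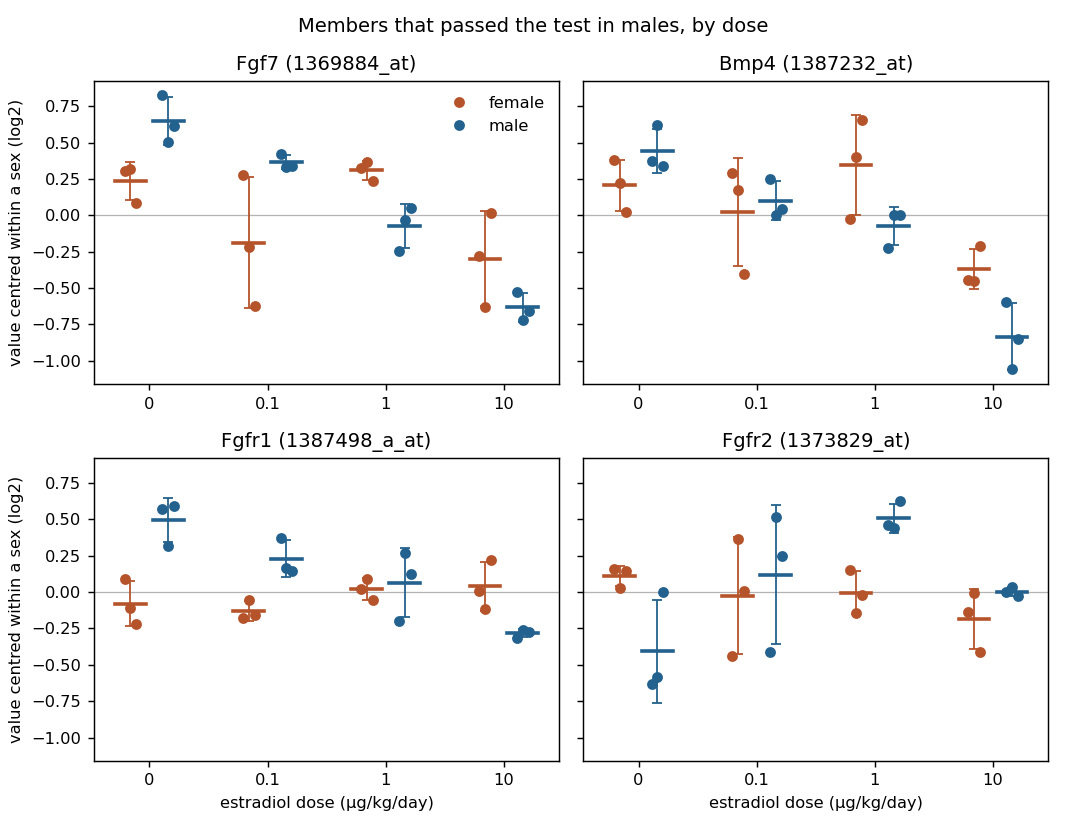
Values of 4 probe sets that passed the test in males, log2 centred within each sex, by estradiol dose in µg per kg per day. Points are single arrays, thick bars the mean and thin bars 1 SD of 3 arrays. Fgf7 and Bmp4 fall with dose in males, Fgfr1 reaches its lowest values in males at 10, and Fgfr2 is highest in males at 1.

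The receptor Fgfr1, which binds Fgf2 and many other family members, is widely expressed in mesenchyme. Its probe set 1387498_a_at read 0.57, 0.32 and 0.59 in control males and -0.32, -0.26 and -0.28 in males at 10. The males at 0.1 read 0.37, 0.16 and 0.15, and the males at 1 read -0.20, 0.27 and 0.12, so these groups overlapped. The difference from the controls was -0.43 ± 0.11 at 1 (adjusted p = 0.0452) and -0.78 ± 0.11 at 10 (adjusted p = 0.000175, limma). In females the controls read 0.09, -0.11 and -0.22 and the females at 10 read 0.01, -0.12 and 0.22, with overlap. The female difference at 10 was 0.12 ± 0.11 (adjusted p = 0.759).

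The other Fgfr1 probe set, 1372447_at, did not show this fall. It read 0.12, -0.02 and 0.17 in control males and 0.10, -0.10 and -0.04 in males at 10, with overlap. The probe sets of this gene correlated at r = 0.53 over the 24 arrays, which share the centring and the scaling of their array. Which transcripts each probe set detects is not given in the sources used here, so the fall is a result of 1 probe set.

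Fgfr2 is the receptor for Fgf7 and Fgf10 on epithelium. Its probe set 1373829_at read -0.64, -0.59 and 0.00 in control males and 0.46, 0.44 and 0.62 in males at 1, a rise of 0.91 ± 0.21 (adjusted p = 0.0223, limma). The males at 0.1 spread from -0.41 to 0.52. At 10 the males read 0.00, 0.03 and -0.03, between the other groups, and their difference from the controls, 0.41 ± 0.21, did not pass. Females at 1 read 0.15, -0.15 and -0.02 and overlapped their controls at 0.16, 0.03 and 0.14. The other 4 probe sets of Fgfr2 did not pass the test in any comparison, and pairs of the 5 correlated between -0.14 and 0.39 over the 24 arrays. The test against the controls was thus passed by 1 probe set at 1 dose. The difference between 10 and 1 for that probe set, -0.50 ± 0.21, did not pass (adjusted p = 0.423, limma), so the doses were not shown to differ.

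Among the ligands that did not pass, Fgf10 had the largest difference. The females at 0.1 read -0.50, -1.28 and -1.18, and their controls read 0.00, 0.16 and -0.30, with no overlap. The difference was -0.94 ± 0.19 (SE) and its adjusted p of 0.0709 missed the threshold. Without female replicate 4 at 0.1 the value was -1.18 ± 0.17 with an adjusted p of 0.01. With arrays weighted by their agreement with the fit it was -1.24 ± 0.14 with an adjusted p of 0.000392. The weights of female replicates 4, 5 and 6 were 0.159, 3.484 and 0.451, so that value rests mostly on replicate 5. Over all probe sets, 204 passed in this comparison without replicate 4 and 1738 with the weights, where 0 passed in the main fit. Females at 1 read 0.37, 0.19 and -0.07 and females at 10 read 0.03, 0.10 and 0.33, so the low values were at 0.1 alone. In males the values at 0.1, between -0.27 and -0.10, also lay below the controls, which read 0.48, 0.01 and 0.05. That male difference was -0.36 ± 0.19 (adjusted p = 0.438).

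Inhba, the subunit of activin A, has a pair of probe sets. In 1383486_at the control females read 0.17, 0.28 and 0.05 and the females at 10 read -0.29, -0.38 and -0.13, with no overlap. The difference was -0.43 ± 0.17 (adjusted p = 0.254) and did not pass. In control males it read 0.20, 0.44 and -0.07, and the males at 10, at 0.06, -0.36 and -0.08, overlapped them. The second probe set, 1369012_at, overlapped between the controls and 10 in both sexes.

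Bmp2, a further BMP ligand, read 0.16, 0.26 and 0.24 in control males with probe set 1368945_at. Every treated male array was lower, between -0.17 and 0.04. The differences were -0.25 ± 0.13 at 0.1, -0.35 ± 0.13 at 1 (adjusted p = 0.126) and -0.27 ± 0.13 at 10 (adjusted p = 0.147), and none passed the test. The second probe set, 1398270_at, read -0.03, 0.06 and -0.13 in control males and 0.20, -0.06 and -0.01 in males at 10, with overlap.

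Among the 6 genes with a single probe set, Hgf had the narrowest range of dose means in both sexes. Its male values ran from -0.06 to 0.10 in the controls and from -0.05 to 0.14 at 10. Its female values ran from -0.10 to -0.06 in the controls and from -0.19 to 0.00 at 10. The difference at 10 was 0.07 in males, with a 95% interval of -0.12 to 0.26, and -0.01 in females, with an interval of -0.21 to 0.18. Met varied more among arrays of a group. Control females read 0.22, -0.36 and -0.49 and females at 0.1 read -0.41, 0.45 and 0.44, so their ranges overlapped. The Met difference at 10 was 0.11 in males, with an interval of -0.34 to 0.56. Fgf2, a matrix-bound growth factor, overlapped between the controls and 10 in both sexes, with a difference of -0.21 in males and an interval of -0.54 to 0.12. Changes within these intervals cannot be told from no change with 3 arrays a group.

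**Figure D2:**
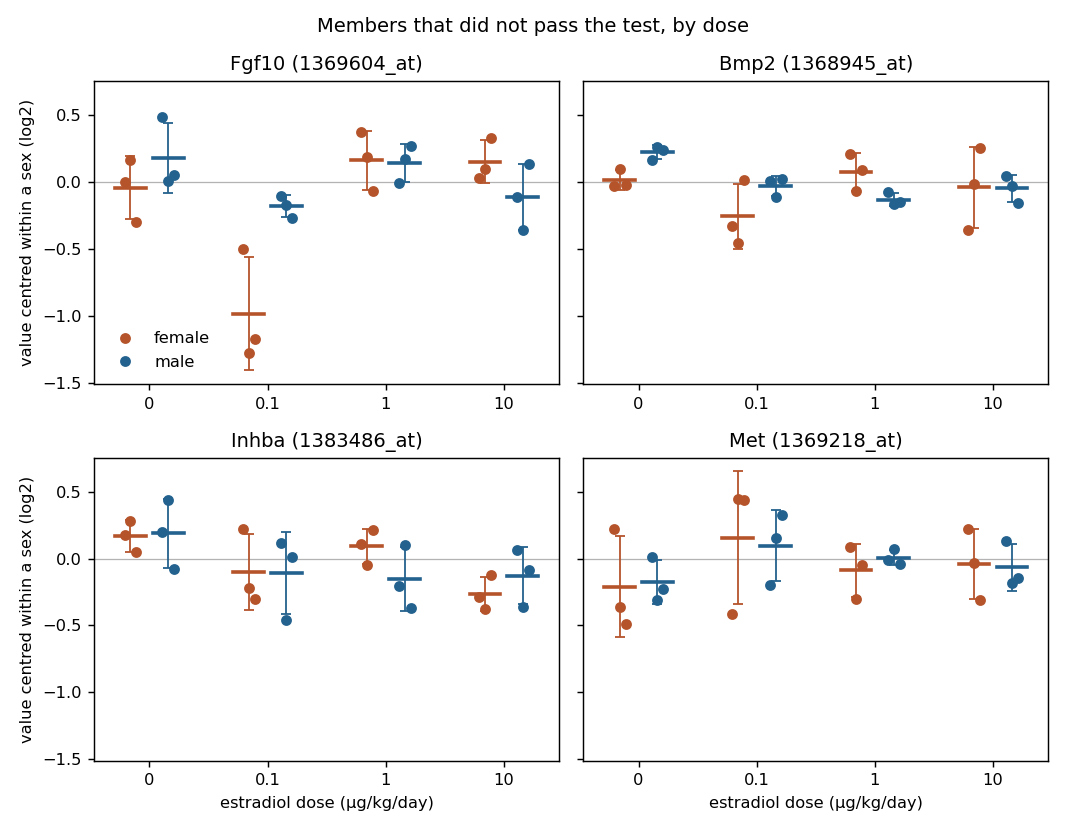
Values of Fgf10, Bmp2, Inhba and Met, log2 centred within each sex, by estradiol dose in µg per kg per day. Points are single arrays, thick bars the mean and thin bars 1 SD of 3 arrays. Fgf10 in females at 0.1 lies between -1.28 and -0.50, below every other female array.

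Counts over the 17 probe sets were set against those over all probe sets. The genes were chosen with earlier results of these data known, so the counts are described only. In males at 10, 3 of 17 passed the test, where 17.5% of all probe sets passed. All 3 were lower, where 9.64% of all probe sets were lower. The share of these genes that passed was thus close to that of the whole array. Without regard to a p-value, 4 of 17 had every male array at 10 below every control, where 18.9% of all probe sets did. In males at 1, 3 of 17 passed, 1 higher and 2 lower, where 3.63% of all probe sets passed. In males at 0.1, 0 of 17 passed, where 0% of all probe sets passed and 2 of the 17 had an unadjusted limma p under 0.05. Between 10 and 1 in males 0 of 17 passed, where 0.387% of all did, and 4 of the 17 had an unadjusted limma p under 0.05.

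In females at 10, 0 of 17 passed, where 1.86% of all probe sets passed, and 3 of the 17 had an unadjusted limma p under 0.05. These were Fgf7, Bmp4 and Inhba. Although none passed, 5 of 17 had every female array at 10 below every control, where 10.2% of all probe sets did. The 5 were the probe sets of Fgf7, Bmp4 and Inhba named above and the Fgfr2 probe sets 1373829_at and 1388168_a_at. In females at 0.1 and at 1, 0 of 17 passed, where 0% of all probe sets passed at either dose. An unadjusted limma p under 0.05 was reached by 3 of the 17 at 0.1 and by 0 at 1. Between 10 and 1 in females 0 of 17 passed, where 0.267% of all did, and 2 of the 17 had an unadjusted limma p under 0.05.

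Whether the sexes differed in their response was tested by subtracting the female difference from that of the males at the same dose. At 10 it passed for 1 of 17, where 1.28% of all probe sets passed. That probe set was Fgfr1 1387498_a_at, at -0.89 ± 0.16 (SE, adjusted p = 0.0163, limma), and its 3 male arrays at 10 were below all control males while the females overlapped. For Fgf7 the value was -0.75 ± 0.24 (adjusted p = 0.119) and for Bmp4 -0.70 ± 0.25 (adjusted p = 0.151). So in the main fit the fall of Fgf7 and Bmp4 passed the test in males and not in females, but a difference between the sexes was not shown for either. With array weights both passed, at -0.82 for Fgf7 (adjusted p = 0.0105) and -0.78 for Bmp4 (adjusted p = 0.0252, limma). That fit called 3491 of all probe sets, against 397 in the main fit. At 1, 0 of 17 passed in the main fit, where 0.0483% of all did. There Fgfr2 1373829_at had 1.03 ± 0.30 (adjusted p = 0.336, limma). At 0.1, 0 of 17 passed, where 0% of all did. An unadjusted limma p under 0.05 was reached by 2 of the 17 at 0.1, 5 at 1 and 5 at 10. The Fgfr1 difference did not pass without female control replicate 3, at -0.80 with an adjusted p of 0.0582.

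**Figure D3:**
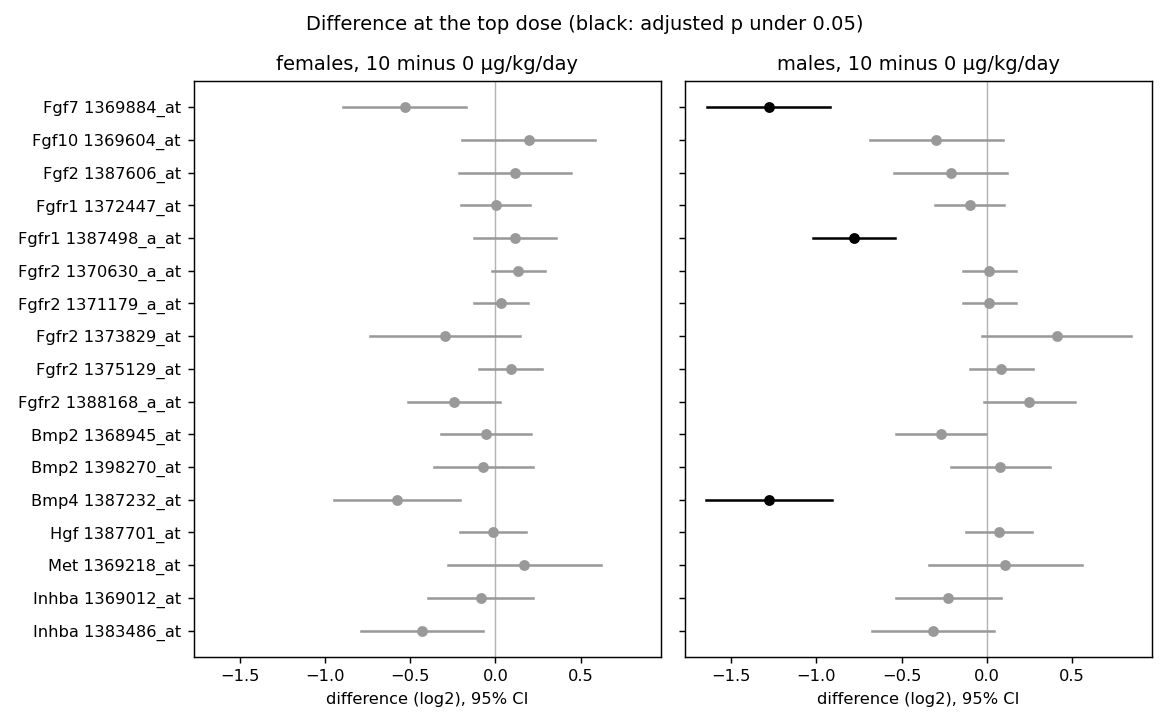
Difference between 10 and 0 µg per kg per day for the 17 probe sets, in log2, with 95% intervals from limma. Females are on the left and males on the right, on the same scale, and black marks an adjusted p under 0.05. Only Fgf7, Bmp4 and 1 Fgfr1 probe set are black, all in males.

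The male calls at 10 were kept whichever of the 6 arrays compared was left out, while those at 1 were not. At 10 the leave-one-out values ran from -1.35 to -1.19 for Fgf7, from -1.40 to -1.16 for Bmp4 and from -0.87 to -0.73 for Fgfr1. At 1 the Fgf7 call was lost without male control replicate 1 or without male replicate 7, 8 or 9. The Fgfr1 call at 1 was lost without male control replicate 1 or 3, or male replicate 7 or 9. The Fgfr2 call at 1 was lost without male control replicate 1 or 2, or any of the 3 male arrays at 1. Over all these leave-one-out fits the adjusted p at 1 reached 0.152 for Fgf7, 0.203 for Fgfr1 and 0.136 for Fgfr2.

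Markers of other cells of the gland moved over the same doses. White adipocyte markers were lower for 21 of 22 probe sets in males at 10, for 15 in males at 1 and for 14 in females at 10, with median differences of -1.21, -0.76 and -0.75. Their mean per array ran from 0.43 to 0.57 in control males, -0.06 to 0.20 at 0.1, -0.35 to -0.23 at 1 and -0.86 to -0.66 at 10. Like Fgf7, this mean did not overlap between neighbouring male doses. Luminal epithelium markers were higher for 9 of 17 probe sets in males at 1, for 6 in males at 10 and for 3 in females at 10. Fibroblast markers were lower for 7 of 20 probe sets in males at 10, with a median difference of -0.24, and for 0 in females at 10. Mast cell markers were lower for 8 of 9 probe sets in males at 10 and for 5 in females at 10. Endothelial markers were lower for 8 of 15 and higher for 2 in males at 10, and lower for 1 in females at 10. Keratinocyte and hair follicle markers were higher for 7 of 10 probe sets in males at 10. Basal and myoepithelial markers were higher for 5 of 13 and lower for 1. Of all probe sets, 9.64% were lower and 7.81% higher in males at 10, and 2.1% and 1.53% in males at 1. In females at 10 these shares were 1.05% and 0.812%. B cell markers passed for 0 of 11 probe sets in males at 10 and T cell markers for 0 of 15. Their median differences were 2.05 and 1.46. The B cell mean ran from -2.24 to 0.03 in control males and from -0.02 to 1.03 at 10. Skeletal muscle markers were lower for 2 of 21 in males at 10. Hepatocyte markers were lower for 4 of 20 in males at 10 and for 2 in females at 10. Since values are centred, the defining markers of these cells have no level here and none can be said to be at 0.

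With the adipocyte and luminal means per array as covariates, a choice made after seeing the data, no call on these genes was kept. The male difference at 10 was then -0.36 ± 0.29 for Fgf7 (adjusted p = 0.847), -0.90 ± 0.38 for Bmp4 (adjusted p = 0.675) and -0.60 ± 0.26 for Fgfr1 (adjusted p = 0.692, limma). That fit called 10 of 31042 probe sets in males at 10, against 5419 without covariates. At 1 it gave -0.04 for Fgf7, -0.32 for Fgfr1 and 0.28 for Fgfr2. The covariates themselves followed dose, since the adipocyte mean did not overlap between neighbouring male doses. This fit therefore cannot separate dose from the covariates, and its errors are too wide to rank the genes. The part of the adipocyte and luminal changes in these results was not tested.

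Hepatocyte transcripts were high in 5 arrays, which were female replicates 1 and 7 and male replicates 2, 3 and 7. Leaving them out leaves 1 control male array, replicate 1, whose spread is then assumed to be that of the other groups. That array had the widest spread over all probe sets among the male arrays and the highest Fgf7 reading of the control males. In that fit the male differences at 10 were -1.46 for Fgf7, -1.21 for Bmp4 and -0.85 for Fgfr1. At 1, with 2 treated arrays against that 1 control, the male differences were -0.82 for Fgf7, -0.37 for Fgfr1 and 1.16 for Fgfr2. With 1 control, no p-value of this fit is given here. The difference between 3′ and 5′ beta-actin probe sets, a measure of RNA quality, ran from -0.56 to -0.06 in control males and from -0.02 to 0.16 in males at 10. With it as a covariate the male falls at 10 still passed, at -0.96 for Fgf7, -1.25 for Bmp4 and -0.70 for Fgfr1. The Fgfr1 call at 1 was lost with it, at -0.42 with an adjusted p of 0.0533 (limma).

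**Figure D4:**
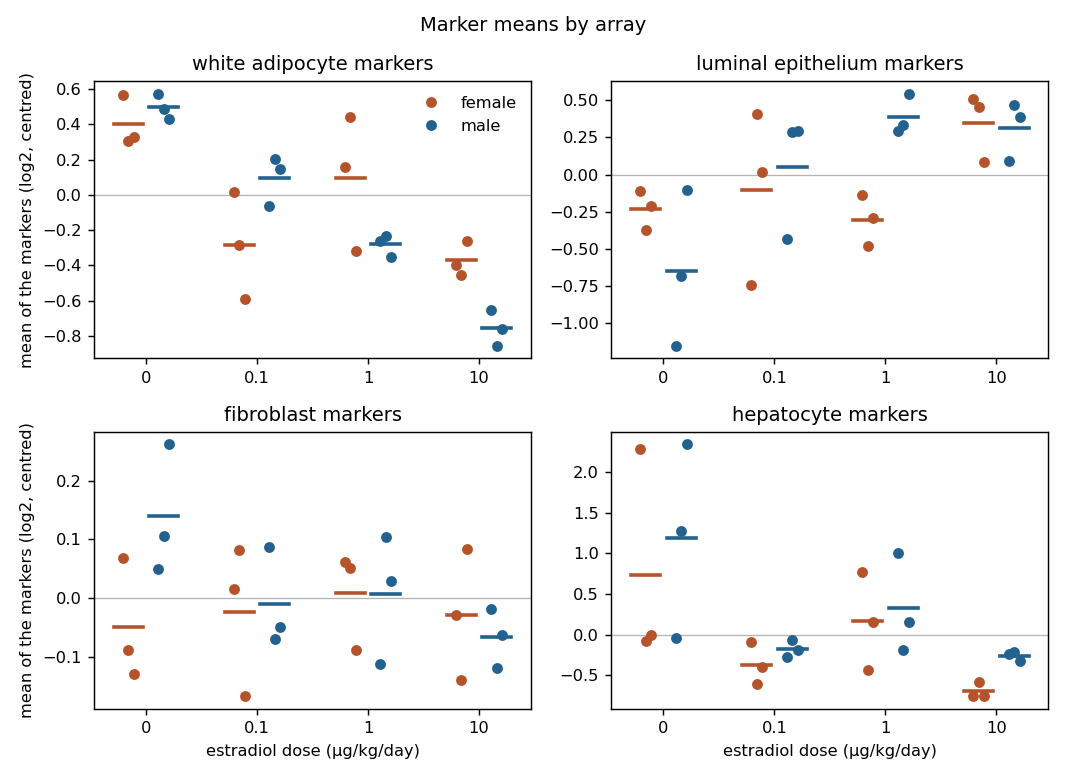
Mean of the probe sets of 4 marker lists per array, log2 centred within each sex, by estradiol dose in µg per kg per day; horizontal bars are means of 3 arrays. White adipocyte markers fall with dose in males, from 0.43 to 0.57 in controls to -0.86 to -0.66 at 10, and hepatocyte markers stand out in single arrays.

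Other genes of these pathways were followed in 8 lists with 81 measured genes and 140 probe sets. The lists were chosen with earlier results of these data known, so their shares are described only and are not a test of the pathways. In males at 10, 46 of the 140 (32.9%) passed the test, where 17.5% of all probe sets passed, 7.81% higher and 9.64% lower. In males at 1, 15 (10.7%) passed, where 3.63% of all did. Among females at 10, 6 (4.29%) passed, where 1.86% of all did. The lists hold annotated probe sets only. When the 20826 probe sets with 1 gene were fitted alone, 4287 passed in males at 10. Of the 46, 24 passed whichever array was left out, and 7 passed with the beta-actin measure as a covariate. Over all probe sets, 5419 passed in the main fit and 738 with that covariate. With 1 array left out, between 2685 and 5239 of all probe sets passed. The fit without the 5 hepatocyte-high arrays leaves only 1 control male, so its count is not given here. With the adipocyte and luminal covariates 0 of the 46 passed, where 10 of all 31042 probe sets did. Differences in the next paragraphs are log2 values in males at 10 with SE and limma's adjusted p unless another group is named.

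Among other FGF ligands and binding proteins in males at 10, 4 of 10 probe sets were lower and 0 higher, with a list median of -0.24 beside -0.01 over all probe sets. Fgf18 was at -1.16 ± 0.29 (adjusted p = 0.0107), and Fgf1, the acidic FGF, at -0.93 ± 0.20 and -0.58 ± 0.12 in its 2 probe sets. Fgf21, an endocrine FGF made in liver and fat, was at -0.41 ± 0.11. Among other FGF receptors and co-receptors 3 of 10 were higher and 1 lower. The rises were in syndecans, the heparan sulfate proteoglycans that help FGFs bind, with Sdc1 at 1.91 ± 0.31 and 1.87 ± 0.28 and Sdc4 at 0.79 ± 0.25. Sdc1 is abundant on epithelium, and 6 of 17 luminal marker probe sets were higher in these males while 11 did not pass. Their part in the rise of Sdc1 was not tested. Fgfrl1, a receptor with no kinase domain, was at -0.73 ± 0.12 (adjusted p = 0.000567).

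Of the feedback inhibitors and targets of FGF signalling, 6 of 20 probe sets rose and 1 fell in males at 10. The ETS factors Etv4 (1.20 ± 0.32), Etv5 (0.57 ± 0.14) and Etv1 (0.47 ± 0.14) rose, as did the cyclin gene Ccnd1 (0.57 ± 0.19 and 0.51 ± 0.17). Spry4, a feedback inhibitor of the pathway, fell at -0.72 ± 0.11 (adjusted p = 0.000288). Targets and ligands of the FGF pathway thus did not move one way. In males at 1, Etv4 (1.46 ± 0.32) and Etv5 (0.68 ± 0.14) also rose. In females at 10, Etv5 (0.62 ± 0.14, adjusted p = 0.0249) and the feedback inhibitor Spry2 (0.50 ± 0.11, adjusted p = 0.019) rose.

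BMP ligands and receptors were lower for 7 of 19 probe sets and higher for 0 in males at 10, with a median of -0.21. Acvr1, a type I receptor, was at -0.99 ± 0.14 and -0.55 ± 0.10 in its 2 probe sets. Bmp1, a protease that cleaves procollagen and the BMP antagonist chordin, was at -0.72 ± 0.12. The receptors and co-receptors Eng (-0.46 ± 0.10), Acvrl1 (-0.40 ± 0.13) and Bmpr1a (-0.40 ± 0.11) fell as well. Eng and Acvrl1 are expressed in endothelium, whose markers were lower for 8 of 15 probe sets, higher for 2 and not past the test for 5 in these males. Their part in these falls was not tested. In females at 10 only 1 of 19 probe sets passed, for Bmp7, at 0.57 ± 0.14 (adjusted p = 0.0381).

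Secreted BMP antagonists had 2 rises and 2 falls among 21 probe sets in males at 10, a share near the 17.5% of all probe sets. Bmper (1.43 ± 0.22) and Sostdc1 (1.27 ± 0.25) rose. Chrdl1, a relative of chordin, fell at -1.58 ± 0.28 (adjusted p = 0.000744), and noggin, Nog, fell at -0.94 ± 0.23 (adjusted p = 0.0101). Nog was also lower in females at 10, at -1.16 ± 0.23 (adjusted p = 0.0145). Falls of a BMP ligand and of a BMP antagonist were thus measured in the same male glands.

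The intracellular mediators and targets of BMP signalling had 7 rises and 2 falls among 23 probe sets in males at 10. The homeobox genes Msx1 (1.06 ± 0.14, adjusted p = 7.53e-05) and Msx2 (0.80 ± 0.27) and the inhibitors of differentiation Id2 (0.95 ± 0.20) and Id4 (0.62 ± 0.13) rose. Id1 (-0.76 ± 0.17) and Id3 (-0.59 ± 0.14) fell. Members of the Id family, direct BMP targets in many cells, thus moved in opposite directions. Msx1 was also higher at 10 than at 1 in males, at 0.73 ± 0.14 (adjusted p = 0.0304). In females at 10, another probe set of Id2 rose by 0.95 ± 0.19 (adjusted p = 0.0131).

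The activin list had 4 of 16 probe sets lower and 0 higher in males at 10. Follistatin, Fst, which neutralises activin and several BMPs, fell in both its probe sets, at -1.07 ± 0.16 and -0.97 ± 0.17 (adjusted p = 0.000258 and 0.000728). The related Fstl3 was at -0.44 ± 0.14 and the type II receptor Acvr2a at -0.62 ± 0.11. Acvr2a was also lower in males at 1, at -0.44 ± 0.11, and in females at 10, at -0.46 ± 0.11 (adjusted p = 0.0346). Inhba itself did not pass in any of these comparisons.

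Genes that activate HGF or signal with MET had 5 rises and 2 falls among 21 probe sets in males at 10. The epithelial protease St14 (0.74 ± 0.21) and its inhibitor Spint1 (0.91 ± 0.27) rose, as did the MET partner Plxnb1 (0.73 ± 0.14) and the plasminogen activator Plat (0.52 ± 0.13). Plau, the urokinase gene, fell at -0.78 ± 0.19. Mst1, an HGF relative made mainly by the liver, fell at -1.49 ± 0.28. Hepatocyte markers averaged 1.28 and 2.34 in control male replicates 2 and 3 and were below 0 in every male at 10. The part of these transcripts in the fall of Mst1 was not tested. St14, Spint1 and Plxnb1 had also passed in males at 1, at 0.88 ± 0.21, 1.15 ± 0.27 and 0.55 ± 0.14. In females at 10, 0 of the 21 passed, and Hgf and Met passed in neither sex.

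Between the sexes at 10, 3 of the 140 pathway probe sets (2.14%) passed, where 1.28% of all did. These were Acvr1 (-0.94), Bmp1 (-0.82) and the TGF-β co-receptor Tgfbr3 (-0.60), all with the more negative difference in males. Each of the 3 calls was lost with the beta-actin covariate, and that of Tgfbr3 also with the replicate number as a block. Each was also lost without at least 7 of the 12 arrays in turn. Of the calls in males at 10 named above, those of Sdc4, Fgf18, Fgf21, Etv4, Etv5, Etv1, Ccnd1, Msx2, St14, Spint1, Bmpr1a, Acvrl1 and Fstl3 were lost without male control replicate 1. Those of Nog and Plau were lost without male replicate 11, and that of Nog also without male control replicate 3. The other calls named in males at 10, among them those of Fst, Acvr1, Chrdl1, Bmper, Sostdc1, Msx1, Sdc1 and Spry4, passed whichever array was left out. The calls in females at 10 and in males at 1 were each lost without at least 1 array. In all 10 alternatives other than the adipocyte and luminal covariates, 6 of the 46 passed, which were both Sdc1 probe sets and 1 each of Msx1, Bmper, Fst and Acvr1.

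**Figure D5:**
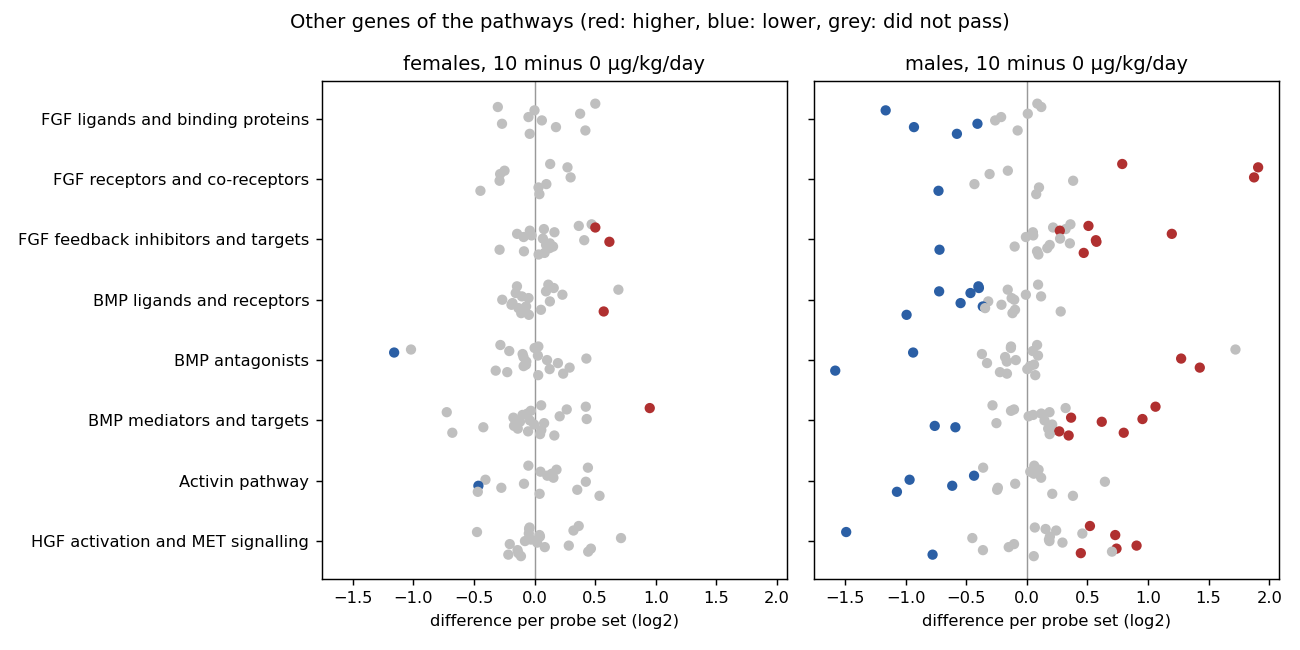
Difference between 10 and 0 µg per kg per day for every probe set of the 8 pathway lists, in log2, in females and males. Red points were higher and blue points lower with an adjusted p under 0.05, and grey points did not pass. In males 46 of 140 points are coloured and in females 6.

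Genes with the pattern most like each of these were found by Pearson correlation over the 24 arrays, which share dose, sex centring and scaling. For Fgf7 they were Col15a1 (0.94), a basement membrane collagen, Itga7 (0.94), a laminin receptor subunit, and Car3 (0.94), a carbonic anhydrase abundant in fat and muscle. For Bmp4 they were Plpp1 (0.91), a lipid phosphatase, Car3 (0.91) and Cxcl14 (0.91), a chemokine. Car3 was thus near the top for both. For Fgfr1 they were Timp3, Igfbp5 and Myo1c, each at 0.91. For Fgfr2 they were Wfdc2 (0.94), Mdfi (0.94) and Tbx3 (0.93), a T-box factor of the mammary line, so the ligand and its receptor were near different genes. For Fgf10 the nearest was Deptor at 0.82, for Fgf2 Smtn at 0.83, for Met Sox4 at 0.80, for Inhba Prdm16 at 0.79, for Bmp2 Srgap2 at 0.77 and for Hgf Pof1b at 0.73.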

How the data were processed

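RNA of 24 mammary gland samples was measured on Affymetrix arrays after biotin labelling, per the labels' protocols. The deposited table holds signed log values, taken here as log2, for 31099 probe sets. GCOS is named per the submitters' processing notes with no role or version. For the log base and for how values were summarized, normalized and centred, the methods were not given in the sources used here. In 45.3% of probe sets over female and 41.9% over male arrays, the values nearest 0 on either side were equal and opposite (tolerance 2e-06), and only 2 such pairs spanned the sexes. Values were therefore treated as centred within each sex, over an unknown set of arrays. Array medians lay between -0.0176 and 0.0132, and no further normalization was applied. The number of arrays limits the precision.

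Groups came from the sample titles. After 57 control probe sets were left out, a model with a mean for each of the 8 groups was fitted to 31042 by lmFit and eBayes (limma 3.58.1, R 4.3.3, 16 residual and 2.95 prior degrees of freedom), with Benjamini-Hochberg adjustment and a threshold of 0.05. In the platform annotation 20826 probe sets carried 1 gene, 436 several and 9780 none. The scripts were tested on simulated data. Up to 6 probe sets per list that passed were named, by size of difference, and the 3 most similar genes per member by Pearson correlation. The members, lists and most alternatives were chosen with earlier results of these data known. Alternatives were other samples in the fit, array weights, robust eBayes, quantile normalization, filters, covariates for RNA quality, other tissues and cell types, a replicate block, and arrays left out. Positions come from RefSeq on GRCr8. The array annotation names no build here.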

Additional observations from a re-analysis of the deposited data

Results flagged for a closer look

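In the Fgfr1 probe set 1387498_a_at, the male difference between 10 and 0 minus the female one was -0.89 ± 0.16 (SE, adjusted p = 0.0163, limma over 31042 probe sets). In this fit the difference at the top dose was thus unlike between the sexes for this 1 probe set. All 3 male arrays at 10, between -0.32 and -0.26, lay below the control males, between 0.32 and 0.59, while the female groups overlapped. The other probe set of Fgfr1 did not pass this test. The difference passed in 10 of 12 alternative settings and in 11 of 12 fits with 1 array left out. Without female control replicate 3 it was -0.80 (adjusted p = 0.0582, limma) and did not pass. With the beta-actin measure as a covariate it was -0.80 (adjusted p = 0.224), and with the adipocyte and luminal markers as covariates it was -0.83 (adjusted p = 0.0628). The adjusted p over all settings ran from 0.00197 to 0.224.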

How the results depend on the processing

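No called difference of these genes changed sign under any setting, and of all values compared 3435 kept their side of the threshold, 15 passed it only under an alternative and 31 no longer passed. Values that passed in neither fit count as kept. Of the 17 probe sets, the number that passed in females at 0.1 was 4 with array weights and 1 without the 2 arrays of widest spread, in place of 0. In females at 10 and between 10 and 1 in females it was 1 without those 2 arrays, in place of 0. In males at 1 it was 2 with only the compared groups in the fit, with quantile normalization, with the beta-actin covariate or with hepatocyte and muscle covariates, each of which lost Fgfr1. It was 1 without those 2 arrays, and 0 without the 5 arrays with hepatocyte transcripts and 0 with adipocyte and luminal covariates, in place of 3. In males at 10 it was 0 with those covariates and 4 with array weights, where Bmp2 also passed, in place of 3. Between 10 and 1 in males it was 1 with only the compared groups in the fit and 2 with array weights, in place of 0. For the difference between the sexes at 10 it was 4 with array weights, 0 with the beta-actin covariate and 0 with adipocyte and luminal covariates, in place of 1. Over all 31042 probe sets, array weights moved the count from 0 to 1738 in females at 0.1. In males at 10 they moved it from 5419 to 8955, and between 10 and 1 in males from 120 to 845. Between the sexes at 10 they moved it from 397 to 3491, and the beta-actin covariate moved it to 23. In males at 1 it went from 1127 to 468 without the 2 widest arrays. With 1 array left out, the number of the 17 that passed ran from 0 to 1 in females at 0.1. In males at 1 it ran from 0 to 2, and between the sexes at 10 from 0 to 1. It was 3 throughout in males at 10 and 0 throughout in the other 7 comparisons. The cause was not tested.

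The replicate numbers are shared by a male and a female array of the same dose. The deviations of the 12 pairs correlated between -0.48 and 0.59, and 5 of 12 were over 0.1. Those 5 were all 3 pairs at 0.1 and 2 of the 3 at 10, while every pair at 0 and at 1 was below 0. Since not every pair was over 0.1 and no label ties the numbers to a shared source, the arrays were not taken as paired. With the replicate block the difference between the sexes at 10 passed for 1 of 17 probe sets, as without it, and at 0.1 and 1 for 0. Of the 3 pathway calls between the sexes at 10, the block lost that of Tgfbr3. Centred values give no signal over background, so it cannot be said which probe sets were near the detection limit, and 3 arrays a group limit the size of change that could be seen.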
